A study of Mus musculus with 6 samples.

Results

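The loci of the muscle creatine kinase gene Ckm, the desmin gene Des, the skeletal muscle alpha-actin gene Acta1 and the cardiac muscle alpha-actin gene Actc1 were described by their peaks of H3K27ac, histone H3 acetylated at lysine 27. Members were the peaks that overlapped a window around each gene in any of 3 deposited peak lists of C2C12 cells, a mouse myoblast line that fuses into myotubes in culture. All positions are on mouse build mm9. The windows were chr7:19980000-20015000 for Ckm, chr1:75340000-75375000 for Des, chr8:126400000-126430000 for Acta1 and chr2:113865000-113915000 for Actc1, 150 kb in all. They held 94 of the 243962 peaks of the 3 lists. Cells were taken while proliferating, or 36 h or 72 h into differentiation, and the labels give no other treatment or genotype. Each stage had 1 H3K27ac library, built from pooled DNA of 4 ChIP assays, and 1 input library, which was not used here. The spread between cultures was therefore not measured, and no comparison between stages carries a test. The series belongs to a study of TAp63, a form of the transcription factor p63, in muscle formation.

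Myoblasts that leave the cell cycle switch on the genes of the contractile apparatus under MyoD family factors, which bind E-boxes, together with MEF2 and SRF, which binds CArG boxes. Ckm encodes the creatine kinase that regenerates ATP in the sarcomere and is a long-used marker of differentiation. Desmin is the intermediate filament that ties neighbouring myofibrils together at the Z-disc. The products of Acta1 and Actc1 build the thin filament, and Actc1, the main sarcomeric actin of heart, is also transcribed in developing skeletal muscle. H3K27ac marks active promoters and enhancers.

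The RefSeq promoters of the 4 genes are shown because they were searched for the binding motifs of these factors, not all of which were matched. Each runs from 250 bases before the transcription start to 50 bases from it on, on build GRCm38.p6, at chr7:19410844-19411143 (plus strand) for Ckm, chr1:75360042-75360341 (plus) for Des, chr8:123894726-123895025 (minus) for Acta1 and chr2:114052826-114053125 (minus) for Actc1. Capitals mark matches to the E-box (CANNTG), the CArG box, the MEF2 site and the MCAT motif of TEAD factors (CATTCC), all searched on both strands.
Ckm: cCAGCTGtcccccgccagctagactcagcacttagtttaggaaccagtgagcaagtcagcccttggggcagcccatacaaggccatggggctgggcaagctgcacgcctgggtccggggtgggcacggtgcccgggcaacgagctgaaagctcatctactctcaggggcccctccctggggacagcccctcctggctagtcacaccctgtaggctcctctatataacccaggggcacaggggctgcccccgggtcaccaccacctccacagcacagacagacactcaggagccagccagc
Des: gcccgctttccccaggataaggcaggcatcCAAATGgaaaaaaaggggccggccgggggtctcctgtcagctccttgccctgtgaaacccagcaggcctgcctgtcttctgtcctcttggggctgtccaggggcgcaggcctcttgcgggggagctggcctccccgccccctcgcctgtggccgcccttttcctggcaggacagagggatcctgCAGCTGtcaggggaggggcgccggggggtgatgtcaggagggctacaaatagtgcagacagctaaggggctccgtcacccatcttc
Acta1: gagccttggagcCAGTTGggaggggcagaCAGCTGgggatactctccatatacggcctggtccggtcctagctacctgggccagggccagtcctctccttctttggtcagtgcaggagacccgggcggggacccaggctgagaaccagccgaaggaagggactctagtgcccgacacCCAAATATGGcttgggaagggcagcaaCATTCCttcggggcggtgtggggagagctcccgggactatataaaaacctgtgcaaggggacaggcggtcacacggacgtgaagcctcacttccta
Actc1: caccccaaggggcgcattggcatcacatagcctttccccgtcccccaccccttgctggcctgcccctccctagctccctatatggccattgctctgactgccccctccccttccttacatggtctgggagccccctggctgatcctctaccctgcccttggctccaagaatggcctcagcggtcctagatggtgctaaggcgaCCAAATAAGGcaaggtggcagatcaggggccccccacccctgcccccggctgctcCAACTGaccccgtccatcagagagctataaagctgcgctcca

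Both actin promoters held a CArG box, beginning 73 bases before the start in Acta1 and 47 bases before it in Actc1, and neither the Ckm nor the Des window of these bases held one. The CArG box was found in 1.63% of the 32851 RefSeq promoters of this length. Each of the 4 held at least 1 E-box, as did 72.3% of all promoters. Ckm had its E-box 249 bases before the start, Des had E-boxes at 220 and 36 bases, and Acta1 at 238 and 221 bases. Actc1 had 1 beginning 9 bases past the annotated start. All these distances are counted from the start annotated in RefSeq. Whether transcription begins there in these cells was not tested, so the Actc1 E-box is not placed inside or outside the transcript. The MCAT motif was matched in Acta1, beginning 46 bases before the start, and in 14.7% of all promoters. No MEF2 site was matched in the 4, against 3.19% of all promoters. A match is a description of the letters and not of binding. Because these sequences are on another build than the peaks, they were not placed under them, and which peak covers a promoter is not given here. In RefSeq, Ckm lies between the protein-coding genes Klc3 and Mark4, Des between Dnpep and Speg, Acta1 between Ccsap and Nup133, and Actc1 between Gjd2 and Aqr. A peak of a window may thus belong to a neighbour.

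H3K27ac at these loci was sparse in proliferating myoblasts outside Des. In differentiating cells it was extensive at Des, Acta1 and Actc1, whereas peaks at Ckm covered 6.87% of its window at 36 h and 10.4% at 72 h. Proliferating cells had 10 peaks in the 4 windows, cells at 36 h had 47 and cells at 72 h had 37. Peaks spanned 8.32 kb of the windows in proliferation, then 50.4 kb and later 52.8 kb. That is 5.55%, 33.6% and 35.2% of the 150 kb. Ckm had 0, 3 and 5 peaks in the order of the stages, Des had 7, 12 and 10, Acta1 had 1, 19 and 10, and Actc1 had 2, 13 and 12. Of the length in proliferation, 7.11 kb lay at Des, 0.821 kb at Actc1, 0.393 kb at Acta1 and 0 kb at Ckm. The lists as a whole also grew: the proliferation list covered 31.3 Mb, the 36 h list 56.0 Mb and the 72 h list 63.7 Mb.

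**Figure D1:**
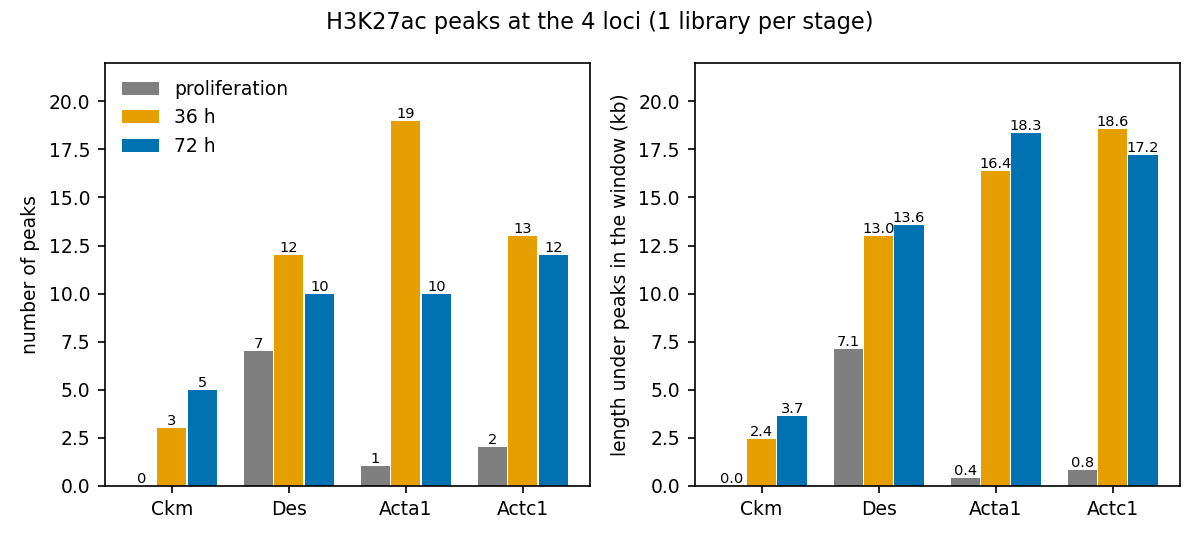
Number of H3K27ac peaks (left) and length under peaks within the window in kb (right) at each locus, as bars for proliferation, 36 h and 72 h. Each bar is 1 library, so there is no error bar. Acta1 has 19 peaks at 36 h and 10 at 72 h while its length under peaks is 16.4 kb and 18.3 kb.

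Set against the whole genome, the actin loci were among the places with the largest increase, and Ckm and Des were less extreme. A locus was called higher where its length under peaks was at least 2 times that of the earlier stage. At 36 h, 3 of the 4 loci (Ckm, Acta1 and Actc1) were called higher than in proliferation, where 48% of 35 kb tiles, 48.2% of 30 kb tiles and 46.7% of 50 kb tiles of the genome with a peak in either list were. At 72 h the same 3 loci were called higher than in proliferation, beside 54.3%, 54.4% and 53.6% of tiles of 35, 30 and 50 kb. Such calls were thus common everywhere, and the sizes say more than their number. Acta1 had 18.3 kb under peaks at 72 h and 0.393 kb in proliferation, a ratio of 46.7 that rests on 1 weak proliferation peak. With a −log10 q or a fold of at least 5 that peak was left out, and Acta1 had no ratio. Actc1 had 17.2 kb at 72 h and 0.821 kb in proliferation, a ratio of 20.98. Under either of those thresholds 1 of its 2 proliferation peaks was left, and the ratio was 46.6. Des had 13.6 kb at 72 h and 7.11 kb in proliferation, a ratio of 1.91, just under the threshold. The Des call depended on the settings: the ratio was 2.84 with windows 5 kb narrower on both sides, and 0.939 after division by the length of each whole list. The same division left 23.0 at Acta1 and 10.3 at Actc1. Over tiles with peaks in both lists, the median ratio of 72 h to proliferation was 1.54 (30 kb), 1.57 (35 kb) and 1.62 (50 kb).

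The added length at 72 h was 18.0 kb at Acta1, and 13 of 27184 tiles of 30 kb (0.0478%) gained at least as much. At Actc1 it was 16.4 kb, reached by 86 of 20668 tiles of 50 kb (0.416%). At Des it was 6.47 kb, reached by 3.77% of 25182 tiles of 35 kb, and at Ckm 3.65 kb, reached by 10.3% of them. These ranks are descriptions. The tiles lay on a fixed grid, whereas the windows were placed around genes.

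**Figure D2:**
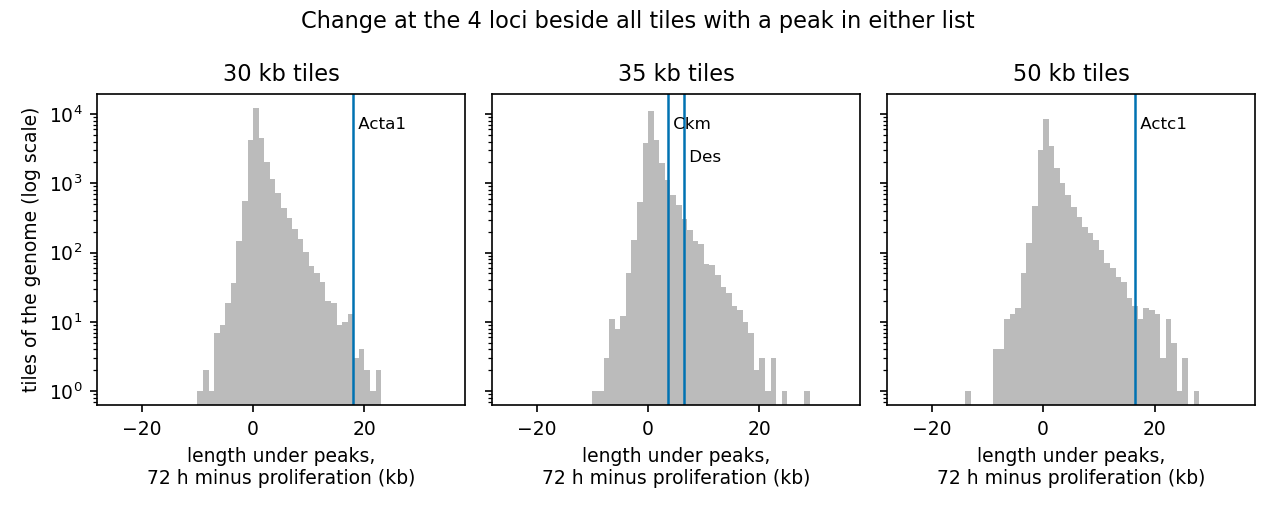
Difference in length under H3K27ac peaks between 72 h and proliferation (kb, x axis) over all genome tiles with a peak in either list, in 3 panels by tile length, with the number of tiles on a log scale (y axis). Vertical lines mark the windows of the same length. Acta1 at 18.0 kb and Actc1 at 16.4 kb stand in the right tail, and Ckm at 3.65 kb and Des at 6.47 kb nearer the bulk.

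For each peak the number of ChIP fragments at the summit was recovered from the deposited fold and p-value and, for comparison between stages, divided by the depth of its library relative to proliferation (1.2 at 36 h and 1.1 at 72 h). Intervals are 95% exact Poisson intervals and cover counting error only. Fold and percentile are the authors' fold enrichment and its rank within the same list.

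Ckm had no peak in proliferation and a compact group of peaks later. At 36 h the 3 peaks lay between 19994721 and 19997363 on chromosome 7, a span of 2.64 kb. At 72 h the 5 peaks reached from 19994095 to 19998104, a span of 4.01 kb, with a short peak added at either end (153 and 284 bp). Both added peaks were weak, with folds of 4.26 and 5.21 and 10.9 and 13.7 summit fragments. The rest of the 35 kb window was without a peak at every stage. The proliferation peak nearest to the strongest 72 h summit was 28.1 kb away, outside the window.

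The central Ckm peak was the strongest at both later stages. Its summit at 19995931 held 73.8 fragments at 72 h (58.6 to 91.7), and that at 19996009, 78 bp away, held 41.0 at 36 h (30.3 to 54.2). Its fold of 26.0 at 72 h lay above 98.5% of that list, and its fold of 15.6 at 36 h above 91.4% of its own. The lower-coordinate neighbour held 56.5 fragments at 72 h (43.3 to 72.4) and 38.5 at 36 h (28.2 to 51.3), with summits 65 bp apart. The upper one held 46.5 (34.6 to 61.1) at 72 h and 23.4 (15.6 to 33.9) at 36 h, with the summit 594 bp farther on at 72 h. It was the widest Ckm peak at both stages, with 1396 bp at 72 h and 983 bp at 36 h. All 3 peaks were thus higher at 72 h, by 1.47 to 1.98 times. The median ratio over all 72 h peaks overlapped at 36 h was 1.09. The 72 h interval overlapped that of 36 h for the lower peak and lay above it for the other 2. That gap was narrow, from 54.2 to 58.6 at the central peak and from 33.9 to 34.6 at the upper one. The intervals make no allowance for the median ratio of the lists. The local background at each Ckm peak was the genome background of its library.

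Des was the locus already acetylated in myoblasts, in 3 separate stretches that were each wider later. The stretch at the lower edge of the window had 3 peaks in proliferation, of 2801, 694 and 636 bp. They lay under a single peak of 5302 bp at 36 h (75339662 to 75344963) and of 5013 bp at 72 h (75339904 to 75344916). Its strongest summit held 80 fragments in proliferation (63.4 to 99.6), 79.5 at 36 h (64.3 to 97.2) and 96.6 at 72 h (79.1 to 117). These intervals overlap. The 72 h summit was 22 bp from that of proliferation, but the 36 h summit was 475 bp from it. The height of the strongest summit differed little between stages, though at 36 h it was read at another place. The 3 proliferation peaks together ran from 75339925 to 75344724, with gaps between them. The later single peak thus covered little more than the stretch they already spanned. All 3 stages have this peak begin before the window does, and it was kept by overlap. By fold it was the strongest Des peak in proliferation (18.3) and at 36 h (22.4).

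The central stretch of Des grew in both width and height. Proliferation had 3 peaks of 379, 1449 and 677 bp between 75355687 and 75358378, which lay under 1 peak of 3244 bp at 36 h and 1 of 4634 bp at 72 h. The strongest summit stood at 75357145 in proliferation, 75357147 at 36 h and 75357183 at 72 h, within 38 bp. It held 46 fragments in proliferation (33.7 to 61.4), 66.9 at 36 h (53.1 to 83.3) and 97.5 at 72 h (79.9 to 118). The 72 h interval lay above that of proliferation, and that of 36 h overlapped both. With a fold of 34.2, above 99.7% of the 72 h list, it was the strongest Des peak of that stage, and the peak at the lower edge followed with 32.4.

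The third stretch of Des had 1 peak of 548 bp in proliferation with 25 summit fragments (16.2 to 36.9) and a fold above 25.1% of that list. At 36 h a peak of 1976 bp covered it with 56.1 fragments (43.4 to 71.2). At 72 h a peak of 1254 bp with 52.8 fragments (40.1 to 68.3) overlapped all but its last 0.02 kb. Both later intervals lay above that of proliferation. Des also had weaker peaks between and beside these stretches. At 36 h 9 of its 12 peaks overlapped no proliferation peak, beside 57.8% of that list, and at 72 h 7 of 10 did not, beside 59.8%. Of these, 2 at each stage had at least 18 fragments at proliferation depth, where 16.8% of all peaks of the 36 h list and 22.1% of the 72 h list had no proliferation peak and as many fragments. The share at Des was thus near that of the lists. In base pairs, 99.7% of the length of proliferation was also under peaks at 72 h, and 52.2% of the length of 72 h was under proliferation peaks.

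**Figure D3:**
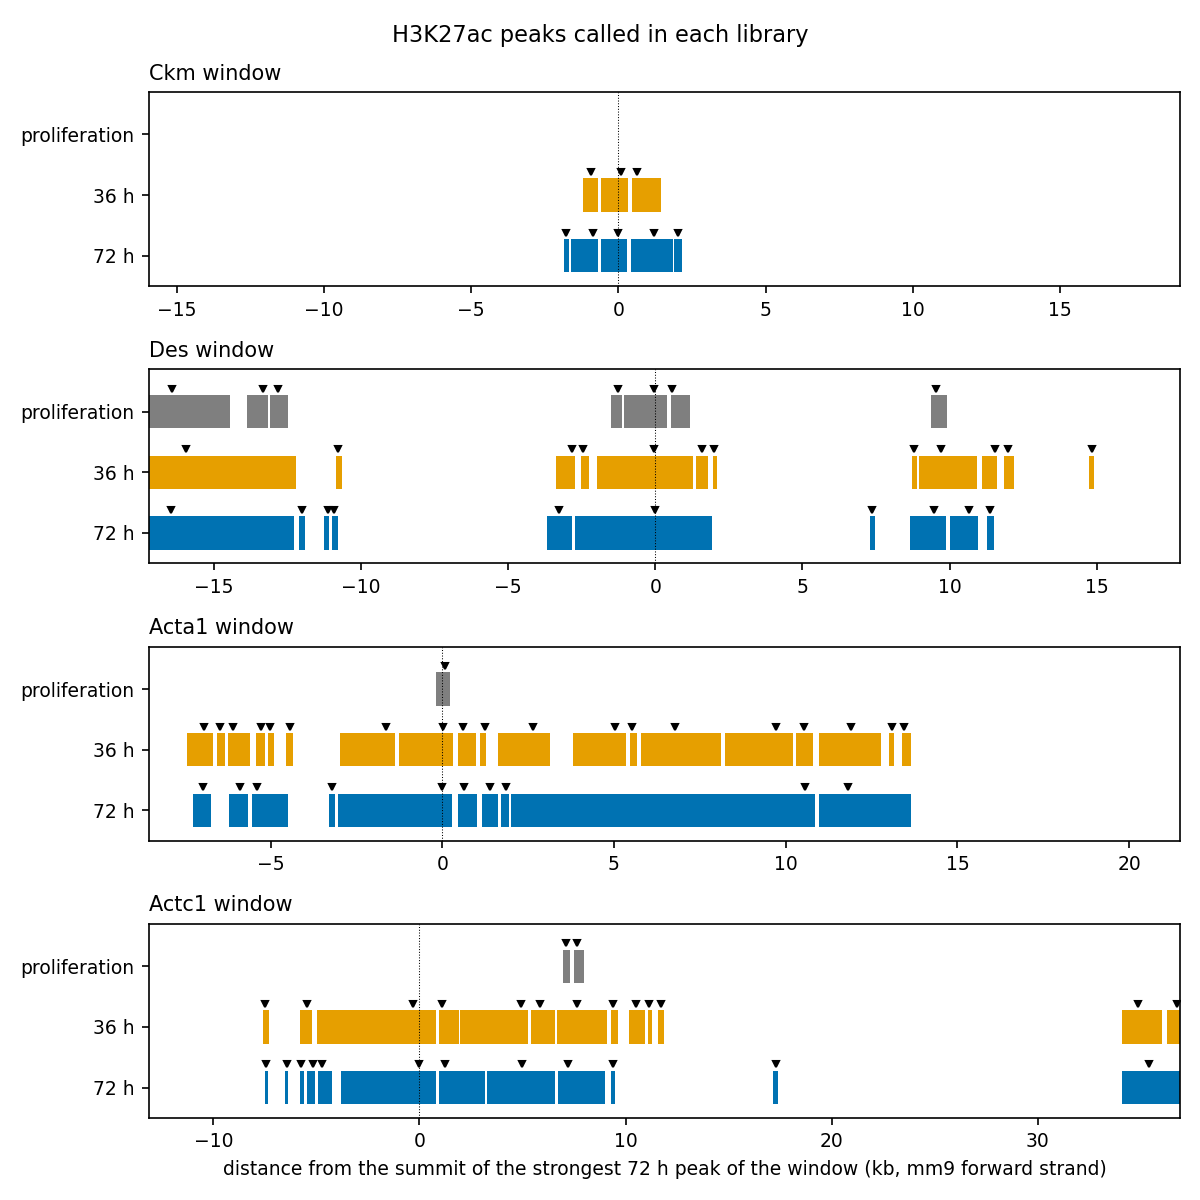
H3K27ac peaks (bars) and their summits (triangles) in the 4 windows, with proliferation, 36 h and 72 h from top to bottom in each panel. The x axis is the distance in kb from the summit of the strongest 72 h peak of the window (dotted line). Ckm is empty in proliferation, Des has 3 stretches at each stage, and a single peak of 8852 bp spans most of the right side of Acta1 at 72 h.

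Among the 3 loci with a proliferation peak, Acta1 had the largest ratio of the later stages to proliferation, 46.7 at 72 h and 41.7 at 36 h. Ckm, with none, has no ratio. The only proliferation peak of Acta1 was 393 bp wide (126408349 to 126408741 on chromosome 8), with 22 summit fragments (13.8 to 33.3). Its fold of 3.16 lay above 3.04% of the proliferation list. The local background there was 3.96 times the genome background of the proliferation library. This weak peak lay where the strongest peak of the locus stood later, with the summits at 126408595 in proliferation, 126408557 at 36 h and 126408527 at 72 h. The later summits held 83.7 fragments at 36 h (68.1 to 102) and 123 at 72 h (103 to 146). The 3 intervals do not overlap, but that of 36 h ends at 102 and that of 72 h begins at 103. They make no allowance for the median ratio of 1.09 over all 72 h peaks overlapped at 36 h. The fold at 72 h was 41.8, above 99.97% of that list, and was the highest of the 94 peaks. At the 36 h and 72 h summits the background was 1.0 and 1.06 times the genome background, and the part of the higher background of proliferation in the difference was not tested.

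Acetylation of Acta1 covered a broad block at both later stages. It reached from 126401100 to 126422177 at 36 h, a span of 21.1 kb with 16.4 kb under peaks, and from 126401281 to 126422168 at 72 h, with 18.3 kb under peaks. The 10 peaks at 72 h had a mean width of 1835 bp, against 862 bp for the 19 at 36 h. A 72 h peak of 8852 bp (126410525 to 126419376), wider than 99.96% of the list, lay over 6 peaks of 36 h, and 1 of 3321 bp lay over another 2. The 2 were the peak with the strongest summit and its neighbour at 126406901, which had 52.7 fragments (40.5 to 67.4), a fold of 19.95 and no proliferation peak. The widest peak of 36 h, of 2308 bp (126414328 to 126416635), had 27.6 fragments (19.0 to 38.8) and lay under the 72 h peak of 8852 bp. Of the length at 36 h, 94.2% was also under peaks at 72 h. Other strong summits at 72 h were at 126419093 (82.9 fragments, 66.7 to 102), 126420352 (72.0 fragments, 57.0 to 89.7) and 126409165 (64.7 fragments, 50.5 to 81.6). The nearest 36 h summits, within 75 bp of each, held 56.1, 51 and 41.8 fragments, and each interval overlapped that of 72 h. Of the 9 peaks of 72 h with a 36 h peak under them, 7 had more fragments than at 36 h, with a median ratio of 1.41. At the lower end of the block the order was the other way, with 24.6 fragments at 72 h (summit 126401574) and 34.3 at 36 h (11 bp away), whose intervals overlap.

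Actc1 gained 17.8 kb under peaks at 36 h over proliferation, the largest gain of the 4 windows at that stage, and its window is also the longest. Acta1 gained 16.0 kb in its 30 kb. Proliferation had 2 small peaks, of 349 and 472 bp, between 113885068 and 113886097 on chromosome 2, with 19 (11.4 to 29.7) and 14 (7.65 to 23.5) summit fragments. At 36 h a block of 11 peaks ran from 113870530 to 113889952, among them peaks of 5765 bp (wider than 99.8% of the list), 3274 bp and 2419 bp. The last of these covered both proliferation peaks and had 62.8 fragments (49.4 to 78.7). The peak at that place at 72 h was 2291 bp wide with 54.7 fragments (41.7 to 70.4). The strongest summit by fold was at 113883048 at 36 h, with 67.8 fragments (53.8 to 84.2), and at 113878105 at 72 h, with 68.3 (53.7 to 85.6) in a peak of 4590 bp. The 36 h peak of 5765 bp had 58.6 fragments (45.7 to 74.0), with its summit 302 bp from that of 72 h. At 113883073, 25 bp from the 36 h summit, 72 h had 64.7 fragments (50.5 to 81.6). A 72 h peak of 2211 bp between these 2 had 49.2 fragments (37.0 to 64.2), and the 36 h summit 147 bp from it had 52.7 (40.5 to 67.4). Apart from the pair over the proliferation peaks, none of the peaks given here overlapped a proliferation peak.

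The length under peaks at Actc1 was 17.2 kb at 72 h and 18.6 kb at 36 h. Of the 10 peaks of 72 h overlapped at 36 h, 2 had more fragments at 72 h, and the median ratio was 0.944. Small peaks at the upper end of the block, from 113888254 to 113889952, were on the 36 h list and had no counterpart at 72 h. They were weak, with folds of 3.64 to 4.90 and 9.20 to 15.9 fragments, so their absence at 72 h may reflect the calling threshold, which was not tested. At the upper edge of the window, apart from the block, a further stretch from 113912206 had 2 peaks at 36 h and 1 of 3741 bp at 72 h, and ran past the window at both stages. Its summit held 57.4 fragments at 72 h (44.1 to 73.4) and 40.2 at 36 h (29.6 to 53.3), with overlapping intervals. No proliferation peak was within this stretch.

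**Figure D4:**
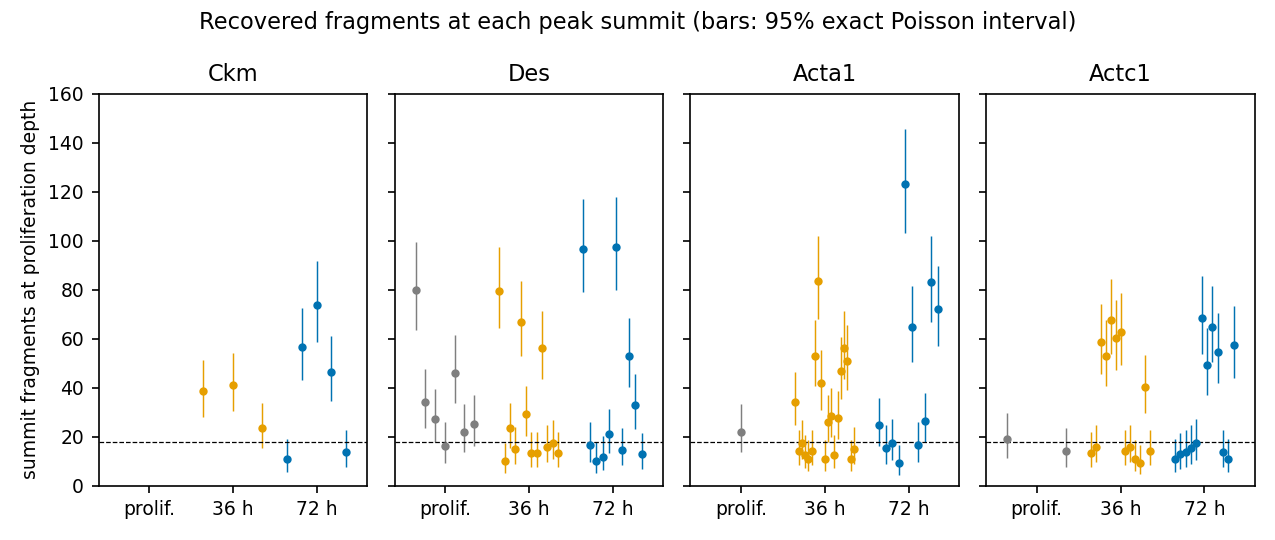
Recovered ChIP fragments at the summit of each peak, divided by library depth relative to proliferation (y axis), by locus and stage, with peaks ordered by position within a stage. Bars are 95% exact Poisson intervals and the dashed line is at 18 fragments. The highest summits are at Acta1 (123 fragments at 72 h) and Des (97.5 at 72 h), and Ckm has no proliferation peak.

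Differences in extent between the later stages were small beside those from proliferation. None of the 4 loci was called higher at 72 h than at 36 h, beside 26.2%, 26.9% and 25.3% of tiles of 35, 30 and 50 kb. The ratio of length under peaks, 72 h over 36 h, was 1.52 at Ckm, 1.12 at Acta1, 1.05 at Des and 0.927 at Actc1. Summit fragments differed in direction between loci. Where 72 h peaks had a 36 h peak under them, they had more fragments at 72 h in 3 of 3 cases at Ckm, 7 of 9 at Acta1, 3 of 7 at Des and 2 of 10 at Actc1, against 61.7% of 64582 such peaks over the whole lists. The median ratio of 72 h to 36 h over the whole lists was 1.09. Some of the window peaks share a 36 h peak, and no test of the difference between loci was made. Against proliferation, the 5 overlapping peaks had more fragments in 5 of 5 cases at 72 h and 4 of 5 at 36 h, with median ratios of 2.12 and 2.24. Over the whole lists 53.9% of such peaks were higher at 72 h and 44% at 36 h, with median ratios of 1.05 and 0.935.

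All 10 proliferation peaks of the windows were overlapped at both 36 h and 72 h, and most later peaks had no proliferation counterpart. When the peaks of the 3 lists were merged, the windows held 38 regions: 5 with a peak at all 3 stages (3 at Des, 1 at Acta1 and 1 at Actc1), 18 at 36 h and 72 h, 7 at 36 h alone, 8 at 72 h alone and 0 in proliferation alone. Regions with a peak at 36 h and 72 h but not in proliferation were 47.4% of those in the windows and 22.3% of all 112926, and regions of all 3 stages were 13.2% and 25.6%. Regions of 36 h alone (18.4% in the windows, 15.9% of all) and of 72 h alone (21.1% and 23.9%) were near the whole lists, and those of proliferation alone were 6.70% of all. Over the whole proliferation list 23.7% of peaks had no 36 h peak and 18% no 72 h peak. A count of 0 of 10 has a 95% Wilson interval of 0 to 27.8%, so a share near that of the list cannot be told apart from it. Of the 36 h peaks of the windows, 42 of 47 (89.4%, 77.4 to 95.4%) overlapped no proliferation peak, beside 57.8% of the list. Of the 72 h peaks, 32 of 37 (86.5%, 72.0 to 94.1%) overlapped none, beside 59.8%. Neighbouring peaks of a block are not independent, and these intervals treat them as if they were. Between the later stages, 8 of 37 peaks of 72 h had no 36 h peak (33.5% of the list) and 7 of 47 peaks of 36 h had no 72 h peak (23%).

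To set aside peaks near the calling threshold, strong ones were counted alone. In proliferation, 18 fragments sufficed for a call even at a background of 4, the 95% quantile of that list. This background is in scaled units, in which each proliferation fragment counts 0.673. Of the 47 peaks of 36 h, 19 had no proliferation peak and at least 18 fragments at proliferation depth, compared with 16.8% of the 36 h list. Of the 37 peaks of 72 h, 14 did, compared with 22.1% of the 72 h list. By locus these were 3 of 5 peaks at Ckm, 2 of 10 at Des, 5 of 10 at Acta1 and 4 of 12 at Actc1 at 72 h. The remaining 18 peaks of 72 h without a counterpart had fewer fragments, and at this depth a peak of that height may or may not have been called.

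Wide and strong peaks were both frequent in the windows at 72 h. Peaks wider than 2 kb numbered 1 of 10 in proliferation, 6 of 47 at 36 h and 10 of 37 at 72 h, beside 2.61%, 4.53% and 5.25% of the lists. Peaks above the 95th percentile of fold in their list numbered 1 of 10, 7 of 47 and 10 of 37 in the same order. The median fold of the window peaks was 5.80, 8.24 and 6.15 in the order of the stages, above 54.1%, 71.9% and 54.8% of the peaks of the same list. When peaks of a list were joined across gaps of up to 12.5 kb, Des lay in a cluster that reached beyond both ends of the window at each stage. It had 13.8 kb under peaks in proliferation (rank 151 of 17462). At 36 h it had 29.7 kb (rank 123 of 21016) and at 72 h 30.1 kb (rank 124 of 23013). The Acta1 peak of proliferation ranked 13906 by this measure, and the Acta1 cluster ranked 357 at 36 h and 330 at 72 h. These later Acta1 clusters spanned 49.1 kb at 36 h and 61.3 kb at 72 h, beyond both ends of the window. Their ranks thus include peaks outside it. The Actc1 block ranked 10218 in proliferation, 497 at 36 h and 681 at 72 h. Ckm was not a long cluster at any stage, with ranks of 5951 at 36 h and 4374 at 72 h.

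The local background behind the calls, read as input signal, was higher in proliferation than later. It was 1.86 times the genome background at the median of the 10 proliferation peaks, 1.0 times over the 47 peaks of 36 h and 1.1 times over the 37 peaks of 72 h, with the same order over the whole lists (1.93, 1.06 and 1.15). Its part in the number and width of the called peaks was not tested.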

How the data were processed

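H3K27ac ChIP-seq peak lists of 3 C2C12 libraries were analysed. Per the labels, each library pooled DNA of 4 ChIP assays (1.2 µg antibody each). Per the submitters' processing notes, the tools were BWA, MACS2 and deepTools and the build was mm9. No version or setting is stated in what was used here. The deposited lists are narrowPeak files, called per library, whose rows give a fold enrichment (a ratio at the summit), a −log10 p, a −log10 q and a score that was not used. They reach down to a −log10 q of 1.32, 1.32 and 1.30 for proliferation, 36 h and 72 h. Read totals were not used here.

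Peaks overlapping a window by at least 1 bp were members, and length under peaks was cut at the window edges. Fragment numbers and backgrounds were solved from fold and p for whole fragments times 1 scale factor per library, and 100% of peaks had a solution within a relative tolerance of 0.0003 of the −log10 p. The procedure was tested on simulated peaks made with the same relation between fragments, background, fold and p. Such a test checks the solving step and cannot show that the deposited values follow that relation. Depth relative to proliferation came from the genome background and the scale factor, and assumes the same genome size setting. Reading the background as input assumes that the input was the MACS2 control.

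No fit was made and no p-value was computed, as each stage had 1 library. All 4 loci were named. Given in full were the strongest and the widest peak of each locus and list, and peaks with no counterpart in another list that were among the 3 strongest of their locus and list by fold. Other peaks were counted. The members, windows and lists were chosen with earlier results of these data known. The ranks among tiles, the summit comparison over whole lists and the count with 18 fragments were added after the lists had been seen. Alternatives were a −log10 q or a fold of at least 5, lists equal in number, thinning to the depth of proliferation, windows 10 kb wider or 5 kb narrower on both sides, another ratio, division by the length of the list and other overlap rules. Thinning left out whole peaks and kept the width of the others, so peak widths could not respond to depth. Python 3.11.15, numpy 2.4.6, scipy 1.17.1 and pandas 2.3.3 were used. Promoter sequences are from RefSeq and matched all 4 genes.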

Additional observations from a re-analysis of the deposited data

How the results depend on the processing

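The direction from proliferation to the later stages kept its sign at Ckm, Acta1 and Actc1 under every setting run that changes it, with those 3 loci called higher at 36 h and 72 h each time. The ratio at Acta1 (72 h over proliferation) was 23.0 and at Actc1 10.3 after division by the length under peaks of the list. With a −log10 q or a fold of at least 5, Acta1 had 0 proliferation peaks and no ratio, and the 1 Actc1 peak left (0.349 kb) gave ratios of 46.6 at 72 h under both and of 51.9 and 48.9 at 36 h. Des passed the 2-fold threshold with windows 5 kb narrower (2.84 at 72 h, 2.57 at 36 h over proliferation), 10 kb wider (2.31 and 2.42) or a fold of at least 5 (2.16 and 2.09), and was 0.939 and 1.02 times proliferation at 72 h and 36 h after that division. With a −log10 q of at least 5, a fold of at least 5 and lists equal in number, the 72 h peaks numbered 24, 24 and 23, and those without a 36 h peak were 4.17%, 8.33% and 4.35%. A fold of at least 5 left 6 proliferation peaks, and the narrower windows left 4.27 kb under peaks in proliferation. At a ratio of 1.5, all 4 loci were called higher than in proliferation at both later stages, with Des at 1.83 (36 h) and 1.91 (72 h). At that ratio 1 locus (Ckm, 1.52) was higher at 72 h than at 36 h. The Ckm ratio was 1.34 with a −log10 q of at least 5 or lists equal in number. When at least 50% of a peak had to be covered, 95.7% of 36 h and 94.6% of 72 h peaks had no proliferation peak. When a peak within 1 kb counted, 74.5% of 36 h peaks had none in proliferation, 5.41% of 72 h peaks none at 36 h and 6.38% of 36 h peaks none at 72 h. The shares of the whole lists under these thresholds and overlap rules are not given here. The window shares can therefore not be set against them. The remaining 82 values over the 4 loci together stayed within 1.5 times or within their interval. Of the values of single loci, 27 peak numbers and lengths moved further. At −log10 q of at least 5 the 72 h peaks numbered 3 at Ckm, 6 at Des and 7 at Actc1, as also in lists equal in number, where Acta1 had 12 at 36 h. A fold of at least 5 left 6 at Des and 7 at Actc1. Wider windows gave Ckm 7 and Actc1 20 peaks at 36 h, Acta1 and Des 16 each at 72 h, and Des 21.4 kb at 36 h and 20.4 kb at 72 h. Narrower ones left Des 4 proliferation peaks (3.05 kb), and 7.85 and 8.66 kb at 36 h and 72 h. No paired analysis was possible because each stage had 1 library. Counting error was the only error that could be given.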

Other observations

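The 50 kb on either side of each window were counted as well. These flanks, 400 kb in all, had 21 peaks over 13.7 kb in proliferation, 59 over 45.0 kb at 36 h and 63 over 44.0 kb at 72 h. Peaks that crossed a window edge, as at Des and Actc1, were counted in both window and flank, with their length cut at the edge. Peaks thus covered 3.42%, 11.3% and 11.0% of the flanks in the order of the stages, where the windows had 5.55%, 33.6% and 35.2%. Most of the later length lay on 2 sides. The flank at higher coordinates than Actc1 had no peak in proliferation, 23 peaks over 14.1 kb at 36 h and 19 over 13.9 kb at 72 h. The opposite flank of Actc1 had 1 peak in all, of 0.152 kb, at 72 h. The flank at higher coordinates than Des had 3 peaks over 6.40 kb in proliferation, 12 over 16.4 kb at 36 h and 14 over 16.2 kb at 72 h. Around Ckm and Acta1 each flank had between 1.34 and 7.61 kb at the later stages. Genes of these flanks were not placed on the build of the peaks.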
